A study of Mus musculus with 3 samples.

Results

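The genes *Cd3e*, *Cd3g*, *Cd3d*, *Trbc2*, *Cd7* and *Nkg7*, which are used together as markers of T cells in the epidermis, were followed through 3 single-cell RNA-seq libraries of dorsal skin. They were taken by name, as 6 of 19927 genes listed over the 3 matrices, and a gene missing from a matrix was counted as 0. Cell suspensions were made from the skin of mice at P18 (postnatal day 18). The controls (*Vdr* flox/flox) gave 2 libraries, and the *Vdr* cKO mice (*Vdr* flox/flox; Krt14cre) gave 1. Both genotypes carried the floxed vitamin D receptor allele, and in the cKO mice the *Krt14* promoter drove Cre, so that recombination was directed to keratinocytes and not to T cells. The skin of 3 male mice was pooled for a library, so a library is 1 sample. With 1 library of that genotype, no test between genotypes was run.

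T cells of mouse epidermis are mostly dendritic epidermal T cells. These lie among the keratinocytes and carry a γδ T cell receptor, whose chains are made from genes such as *Trdc* (the δ constant region) and *Trdv4* (a variable segment of the δ chain). The receptor itself has no signalling tail. T cell receptors signal through CD3 chains and through the ζ chain of *Cd247*. *Cd3e*, *Cd3g* and *Cd3d* encode the CD3 chains of T cells. *Trbc2* encodes a constant region of the β chain, which belongs to the other form of the receptor, the αβ receptor. *Cd7* encodes a surface protein of T cells and natural killer cells, and *Nkg7* a protein of cytotoxic granules.

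Barcodes were kept as cells when 200 or more genes were detected and mitochondrial genes gave no more than 20% of the counts. This left 1480 cells in control 1, 1658 in control 2 and 2622 in the library labelled cKO. These cells held 18802408, 28690129 and 30954897 counts. The median cell had 4190, 4492.5 and 4055 counts, but 377, 502 and 688.5 detected genes in the same order, so any share of cells with a count can move with the number of genes a library detects. *Vdr* itself stood at 40.7 and 35.9 CPM (counts-per-million of a library's total) in the controls and at 80.8 CPM in the library labelled cKO. The counts come from the ends of transcripts, and the deletion removes an early exon, so this value does not check the deletion, and that library is named by its label throughout. Among the kept cells, 27, 28 and 20 had a barcode that also occurs in another library. Nearly all cells held keratinocyte transcripts, and *Krt10*, a keratin of the suprabasal epidermis, had a count in 1478, 1648 and 2606 cells. The 10 listed Langerhans cell genes summed to 190, 281 and 363 CPM, with none at 0 in any library. The summed level was 4.25, 17.99 and 3.23 CPM for 6 macrophage genes, 8.72, 0.767 and 3.78 CPM for 5 fibroblast genes, and 4.15, 1.57 and 2.46 CPM for 4 endothelial genes. For B cells 3 of 6 genes, and for mast cells 1 of 6, were listed in any matrix, and they summed to at most 3.78 and 0.775 CPM. The 5 erythroid genes summed to 106, 464 and 62.7 CPM, and the 5 melanocyte genes to 4.10, 3.56 and 39.6 CPM. The part of these other cells in the results below was not tested.

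The CD3 chains were found in few cells of every library. *Cd3e* (GRCm38 chromosome 9, 44998740 to 45009627, minus strand) had a count in 10 and 19 cells of the controls and in 55 cells of the library labelled cKO, at 5.96, 3.76 and 9.79 CPM. *Cd3g* (chromosome 9, 44969572 to 44980431, minus strand) had a count in 9, 11 and 52 cells, at 4.84, 9.65 and 15.8 CPM. *Cd3d* (chromosome 9, 44981786 to 44987339, plus strand) is not listed in the matrix of control 1, and had 2 counts in 2 cells of control 2 and 214 counts in 35 cells of the library labelled cKO. All 3 chains were thus highest in that library, both by CPM and by number of cells.

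The 3 CD3 genes are neighbours, within 40056 bases. *Cd3g* and *Cd3d* face away from each other, with 1355 bases between their starts. Since CD3 chains were found in the same cells (below), the windows around their starts are printed here from RefSeq (GRCm38.p6), from 250 bases before to 50 bases after the start and in the direction of the gene. They lie at chr9:45009562-45009861 for *Cd3e*, chr9:44980382-44980681 for *Cd3g* and chr9:44981536-44981835 for *Cd3d*. Capitals mark GGAA, the core of binding sites of Ets factors, and CAGGTG, an E-box, on either strand (TTCC and CACCTG read on the other strand). No 2 of these matches overlap.
Cd3e: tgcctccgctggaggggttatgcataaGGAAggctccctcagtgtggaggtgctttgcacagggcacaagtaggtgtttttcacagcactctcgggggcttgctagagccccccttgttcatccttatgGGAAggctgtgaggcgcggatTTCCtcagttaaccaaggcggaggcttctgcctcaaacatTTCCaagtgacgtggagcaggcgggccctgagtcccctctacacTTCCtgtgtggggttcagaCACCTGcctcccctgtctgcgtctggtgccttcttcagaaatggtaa
Cd3g: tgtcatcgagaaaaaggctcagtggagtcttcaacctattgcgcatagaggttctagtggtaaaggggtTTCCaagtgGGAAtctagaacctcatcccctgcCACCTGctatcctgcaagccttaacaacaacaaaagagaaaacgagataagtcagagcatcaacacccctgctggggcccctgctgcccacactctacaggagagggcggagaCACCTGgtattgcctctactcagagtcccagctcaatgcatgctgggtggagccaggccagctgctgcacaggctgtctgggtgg
Cd3d: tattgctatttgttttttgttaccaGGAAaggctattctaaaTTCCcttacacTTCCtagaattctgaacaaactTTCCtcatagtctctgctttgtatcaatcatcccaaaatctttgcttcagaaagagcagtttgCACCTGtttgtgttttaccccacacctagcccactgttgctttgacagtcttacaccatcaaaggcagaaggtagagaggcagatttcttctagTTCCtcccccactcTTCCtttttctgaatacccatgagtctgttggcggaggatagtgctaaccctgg
The *Cd3e*, *Cd3g* and *Cd3d* windows hold GGAA 5, 2 and 6 times, and CAGGTG 1, 2 and 1 times. Of all 32851 promoter windows of the same table, 96.0% hold GGAA and 20.2% hold CAGGTG, so the first says little about any of them. TATAAA, the TATA box, was searched for on both strands as well and is in none of the 3 windows and in 13.6% of all windows. The window of *Nkg7* (chr7:43436888-43437187) was searched too, and has 4 GGAA, no CAGGTG and no TATAAA. A match of letters is not a binding site. The table held windows for 4 of the 6 genes.

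*Trbc2* (chromosome 6, 41546730 to 41548352, plus strand) behaved differently from the CD3 chains. It had a count in 120, 189 and 420 cells, or 8.11%, 11.4% and 16.0% of cells, and stood at 127, 84.2 and 136 CPM. Its counts made up 81.7%, 83.9% and 70.8% of all counts of the 6 genes, so their sum is mainly a measure of *Trbc2*. The constant regions of *Trbc1* and *Trbc2* are nearly identical, and how reads that match both were handled is not given in the sources used here, so the split between the 2 genes is uncertain. *Trbc1* had a count in 8, 4 and 20 cells.

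*Cd7* (chromosome 11, 121036747 to 121039418, minus strand) had a count in 17, 11 and 46 cells, at 9.999, 2.16 and 10.1 CPM. Control 1 and the library labelled cKO thus had nearly the same *Cd7* level, and control 2 was the low one. *Nkg7* (chromosome 7, 43437073 to 43438249, plus strand) had a count in 9, 6 and 49 cells, at 7.71, 0.523 and 13.4 CPM. For both genes the controls stood farther apart than the log2 fold between genotypes, which is the log2 of the level in the library labelled cKO divided by the average of both controls, after 1 CPM was added to each. That fold was 0.65 for *Cd7* and 1.49 for *Nkg7*, where control 1 over control 2 gave 1.80 and 2.52.

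**Figure D1:**
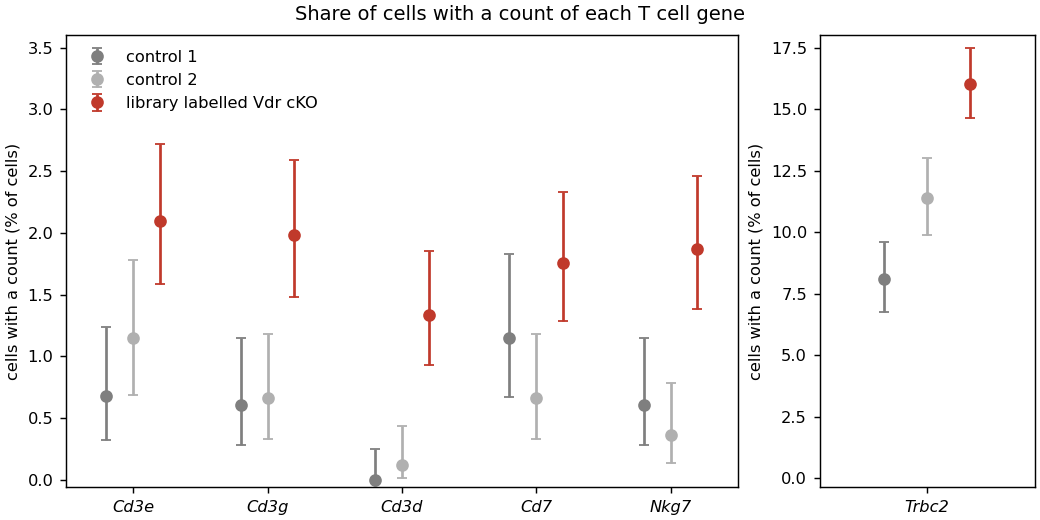
Share of cells with a count of each gene (percent of cells, vertical axis, with *Trbc2* on an axis of its own) in the 3 libraries. Points are single libraries and bars are exact 95% binomial (Clopper-Pearson) intervals, which cover counting error only. The library labelled cKO is the highest for all 6 genes, and *Cd3d* has no count in control 1.

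By CPM, 4 of the 6 genes reached 10 CPM in at least 1 library, and 0 of these 4 differed from both controls by over 2-fold in 1 direction. Of all 8806 genes at this level, 8.83% were over 2-fold above both controls and 1.79% over 2-fold below. The log2 folds were 0.88 for *Cd3e*, 1.03 for *Cd3g*, 2.93 for *Cd3d* and 0.36 for *Trbc2*. Between the controls, the log2 ratio of control 1 over control 2 was 0.55, −0.87, −0.10 and 0.59, so the controls differed by more than the fold for *Trbc2*. For *Cd3d* the controls stood at 0 and 0.0697 CPM. With 1 CPM added, their ratio is small at such levels, so it does not measure the spread of the controls. *Cd3d* did not reach 10 CPM in any library. With 2 counts over both controls, its CPM was 164 times higher in the library labelled cKO (counting interval 44.9 to 1364), and its share of cells 20.9 times higher (5.38 to 180). These intervals take the counts and cells of a library as independent draws. They do not cover the spread between libraries, PCR copies or shifted barcodes (below), so they do not compare the genotypes. After joining shifted barcodes, *Cd3d* was in 0, 2 and 29 cells. The median log2 fold of the 6 genes was 0.95, where the median of all 8806 genes was 0.14.

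Counts of a gene in a control often came from 1 cell. In control 1, 74.7% of the *Cd3g* counts, 75.2% of the *Nkg7* counts and 44.7% of the *Cd7* counts were in a single cell each. In control 2 a single cell held 77.6% of the *Cd3g* counts. The highest cell of the library labelled cKO held between 4.89% (*Trbc2*) and 21.5% (*Cd3g*). Without the cell of most counts in each library, *Cd3g* stood at 1.23, 2.17 and 12.4 CPM, and its log2 fold was 2.31. *Nkg7* then stood at 1.93, 0.314 and 10.8 CPM, with a log2 fold of 2.48. The level of both genes in the controls thus rested mostly on 1 cell in control 1, and for *Cd3g* in control 2 as well.

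By share of cells with a count, all 6 genes reached 1% of cells in at least 1 library, and 3 of them, *Cd3g*, *Cd3d* and *Nkg7*, were over 2-fold above both controls. Of all 10291 genes at this level, 18% were. The shares of *Cd3g* were 0.608%, 0.663% and 1.98%, those of *Cd3d* 0%, 0.121% and 1.33%, and those of *Nkg7* 0.608%, 0.362% and 1.87%. For control 1, 0 of 1480 cells with *Cd3d* allows a share of cells with a count of up to 0.249% (exact 95% interval), which does not limit the share of cells that express it. *Cd3e* (0.676%, 1.15% and 2.10%), *Cd7* (1.15%, 0.663% and 1.75%) and *Trbc2* were also highest in the library labelled cKO, by less than 2-fold over the higher control. The median log2 ratio of shares was 1.42 for the 6 genes and 0.68 for all 10291 genes. With each cell taken at 1000 counts (the exact expected share over draws of 1000 counts, without the 14, 61 and 60 shallower cells), *Cd3e* was in 0.542%, 0.443% and 0.871% of cells, *Cd3g* in 0.263%, 0.297% and 0.931%, *Cd3d* in 0%, 0.0665% and 0.601%, *Cd7* in 0.618%, 0.414% and 0.776%, and *Nkg7* in 0.213%, 0.141% and 0.698%. *Cd3g*, *Cd3d* and *Nkg7* were over 2-fold above both controls here too, but below 1% of cells in each library. At that depth, only *Trbc2* reached 1% of cells, at 3.72%, 3.84% and 5.59%, and it was not over 2-fold above both controls. Of all 6862 genes that reached 1%, 11.9% were.

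Free RNA in droplets can give a cell counts of a gene it does not express. As cells that should lack T cell transcripts, the 370, 415 and 656 cells with the highest share of *Lor* (loricrin, a protein of the cornified envelope) were used. They are a range of cells and not a type. In the library labelled cKO, *Cd3e* was in 1.98% of these *Lor*-high cells and 2.14% of the other cells. *Cd3g* was in 1.68% and 2.09%, *Cd3d* in 0.915% and 1.47%, *Cd7* in 1.98% and 1.68%, and *Nkg7* in 2.44% and 1.68%. The median depths were 3934.5 and 4087 counts. The exact 95% intervals of each such pair of shares overlapped. With 6 to 16 *Lor*-high cells per gene they are wide, so the overlap cannot show that the shares are equal. In the controls, each of these 5 genes was in at most 3 of 370 and 8 of 415 *Lor*-high cells, too few to compare the classes. Since *Lor*-high cells also held counts of these genes, the higher shares in the library labelled cKO cannot by themselves be read as more cells that express them. The part of free RNA was not tested. *Trbc2* was in 22.1% of the *Lor*-high cells and 14.0% of the other cells of this library, but in 5.41% and 9.01% in control 1 and 6.27% and 13.1% in control 2. It was thus common in *Lor*-high cells of all 3 libraries. The median depths of the 2 classes were 3762 and 4390.5 counts in control 1 and 3459 and 4986 in control 2.

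Counts of several of the 6 genes in 1 cell were therefore compared with the number expected at equal depth. The expected number takes each gene as detected independently of the others within 10 groups of cells of similar depth. Cells with 2 or more of the 6 genes numbered 7 and 11 in the controls and 68 in the library labelled cKO, or 0.473%, 0.663% and 2.59% of cells. The expected numbers were 6.37, 7.33 and 59.6, so the observed over expected ratio was 1.10, 1.501 and 1.14. The exact interval of the ratio held 1 in each library. By this measure the 3 libraries differed in number of cells, while the excess over the expected number was within counting error in each. For the 4 receptor genes (*Cd3e*, *Cd3g*, *Cd3d* and *Trbc2*) the ratio was 2.67, 1.02 and 1.45. The counting intervals were 0.867 to 6.21, 0.331 to 2.38 and 1.07 to 1.91. With cells taken at 1000 counts, the ratio for the 6 genes rose to 2.17, 1.65 and 2.68. After shifted barcodes were joined (below), the interval for the 4 receptor genes in the library labelled cKO was 0.866 to 1.76.

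The ratio also rose with more genes per cell and without *Trbc2*. Cells with 3 or more of the 6 genes numbered 4, 1 and 31, where 0.129, 0.0955 and 3.34 were expected. For the last of these this was 9.27 times the expected number (counting interval 6.31 to 13.1). Cells with 2 or more of the 5 genes other than *Trbc2* numbered 5, 3 and 37, where 0.614, 0.532 and 10.1 were expected, or 8.14, 5.64 and 3.66 times the expected number. The lowest bounds of these 3 ratios were 2.65, 1.16 and 2.58. Counted on barcodes as deposited, these bounds put cells with several of the 5 genes above the number that depth gives in each library. Such cells were very few in the controls. In control 1, 4 of the 5 cells form 2 shifted pairs (below). After joining, 3 cells were left there, with a lowest bound of 1.24. In control 2 the excess rests on 3 cells. One of them, with 138355 counts, had a shifted partner in common with a barcode that is also in another library (below). The excess in both controls is therefore uncertain. In control 1 none of the cells with 2 or more of the 5 genes held *Cd3d*, which is not listed there. In control 2 none of them held *Cd3d* or *Nkg7*. Leaving out *Trbc2* was chosen after the values were seen, so these bounds are no test.

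Cells with 2 or more CD3 chains were found in the library labelled cKO, with 23 cells where 2.93 were expected, and 5 of these had all 3 chains. No cell of control 1 or control 2 had 2 CD3 chains. With 0.0405 and 0.163 cells expected there, their absence says little about whether CD3 chains go together in the controls. As shares of cells, the exact upper bounds were 0.249% and 0.222%. In the library labelled cKO the share was 0.877% (0.557% to 1.31%). There, 10 cells held *Cd3e* with *Cd3d* and 6 held *Cd3g* with *Cd3d*. *Cd3d* is not listed in control 1, so only *Cd3e* with *Cd3g* could be seen there. After joining (below), the bounds of the controls were 0.271% and 0.270%, and the share in the library labelled cKO was 0.651% (0.356% to 1.09%). These intervals cover counting error only and not the spread between libraries, so they do not compare the genotypes. The controls also detected fewer genes per cell.

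**Figure D2:**
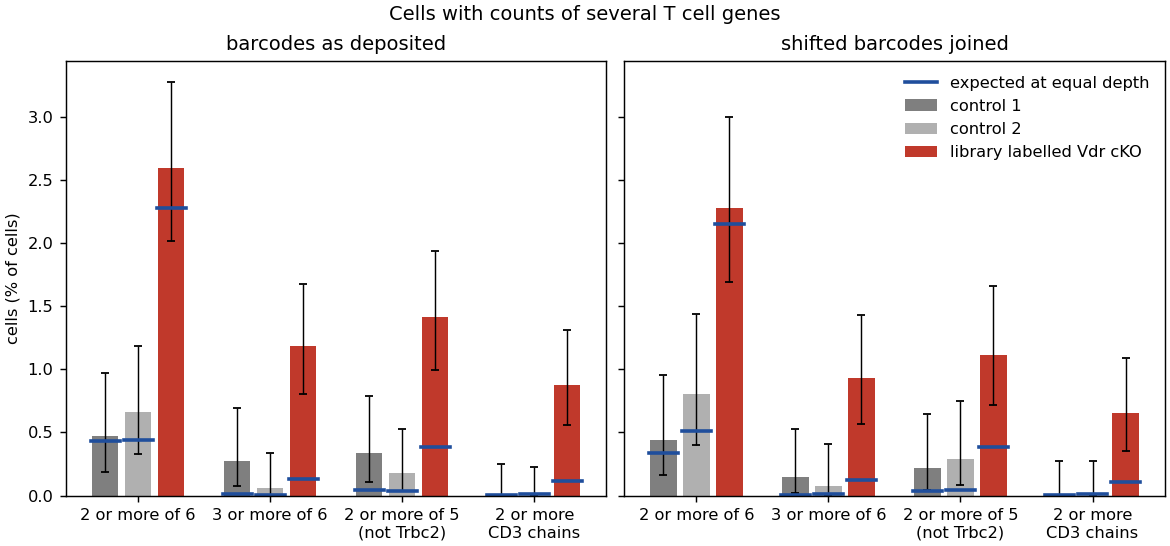
Percent of cells (vertical axis) with 2 or more or 3 or more of the 6 genes, 2 or more of the 5 genes other than *Trbc2*, or 2 or more CD3 chains, in each library, with the barcodes as deposited (left) and with shifted barcodes joined (right). Bars are observed shares with exact 95% intervals of counting error, and blue lines are the shares expected at equal depth. In the library labelled cKO the bar of 2 or more of 6 is close to its line, and the other 3 bars stand well above theirs in both panels.

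The pairs of genes showed the same split. They were counted on the barcodes as deposited, so both barcodes of a shifted pair (below) enter. They were not counted again after joining. In the library labelled cKO, all 10 pairs without *Trbc2* were above the expected number, with 129 pair counts where 10.7 were expected and ratios from 7.45 to 14.7. *Cd3e* and *Cd3g* shared 17 cells where 1.36 were expected, *Cd3e* and *Cd7* 17 where 1.16 were, and *Cd7* and *Nkg7* 14 where 1.12 were. The pair with the lowest ratio was *Cd3g* and *Cd3d*, with 6 cells where 0.805 were expected. The 5 pairs with *Trbc2* had 77 pair counts where 55.9 were expected, and ratios from 0.986 (*Cd7*) to 1.77 (*Nkg7*). In control 1, 4 of the 10 pairs without *Trbc2* were seen, all above the expected number, with 4 cells for *Cd7* and *Nkg7* where 0.196 were expected. In control 2, 2 of the 10 were seen, *Cd3e* with *Cd7* in 2 cells and *Cd3g* with *Cd7* in 1.

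**Figure D3:**
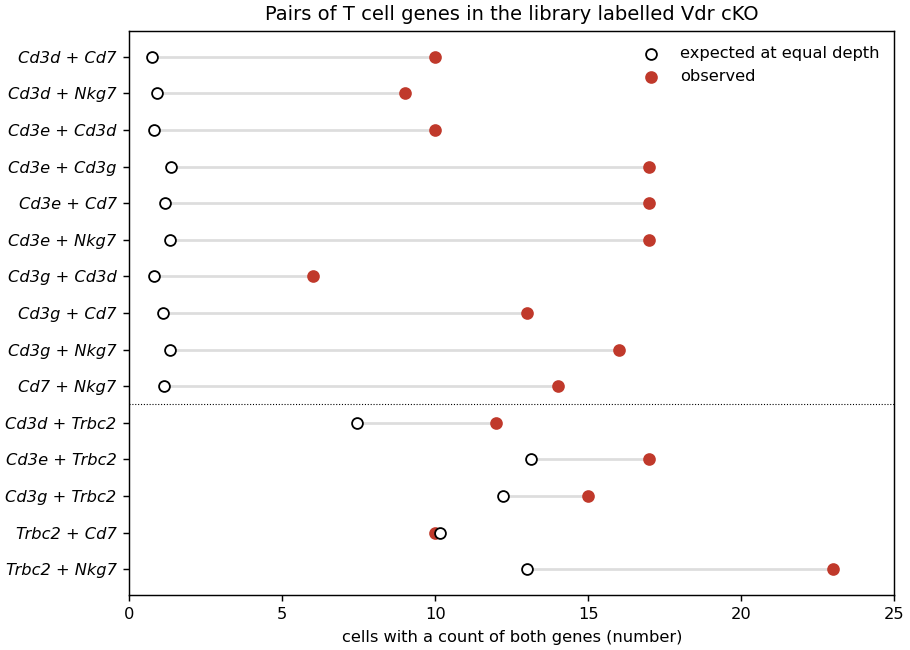
Number of cells with a count of both genes of a pair (horizontal axis) in the library labelled cKO, for the 15 pairs of the 6 genes. Filled points are observed numbers and open points the numbers expected at equal depth, with the 5 pairs that hold *Trbc2* below the dotted line. Barcodes are as deposited, with shifted barcodes not joined. The 10 pairs without *Trbc2* lie between 6 and 17 cells with about 1 expected, while open and filled points lie close together for *Trbc2* with *Cd7*.

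Counts per cell differed between cells with several of these genes and cells with 1 of them. In the library labelled cKO, the 24 cells with *Cd3g* and another of the 5 genes had a median of 6 *Cd3g* counts, and the 28 cells with *Cd3g* alone a median of 2. For *Nkg7*, 25 cells with another of the 5 genes had a median of 6 counts and 24 cells alone a median of 2. Of all *Cd3e*, *Cd3g*, *Cd7* and *Nkg7* counts in this library, 71.3%, 73.6%, 79.0% and 76.3% were in cells with another of the 5 genes, and 47.2% of the *Cd3d* counts. Of the *Trbc2* counts, 5.94% were, and *Trbc2* had a median of 3 counts with another gene and 4 alone. Both barcodes of a shifted pair (below) are counted here. In control 1, the 4 cells with *Nkg7* and another gene are 2 such pairs, and 5 cells had *Nkg7* alone. Control 1 had higher medians with another gene, at 11 against 2 for *Nkg7*, 6 against 4.5 for *Cd7* and 3 against 2.5 for *Cd3g*. Control 2 did not, with medians of 1.5 and 3 for *Cd3e*, 3 and 4 for *Cd3g* and 2 and 3 for *Cd7*, and at most 3 cells with another gene. In the library labelled cKO, cells with another gene were also deeper. For *Cd3g*, the median was 13555 counts per cell against 4550, and the part of depth in the number of counts was not tested.

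The cells with 2 or more of the 6 genes also held keratinocyte transcripts. All 7, 11 and 68 of them had *Krt10* counts, and 7, 11 and 67 had *Lor* counts. Counts of the 6 genes were a median of 0.252%, 0.0461% and 0.108% of such a cell's counts, and at most 1.16%. *Krt10* stood at 27175 CPM over these cells of the library labelled cKO and at 23952 CPM over its other cells. In control 1, *Krt10* was lower in these cells, at 14542 against 35415 CPM, and in control 2 higher, at 39050 against 32805 CPM. The direction of this pooled level in the library labelled cKO depended on the cells chosen. It was 22921 against 24215 CPM for cells with 3 or more of the 6 genes. For 2 or more of the 5 genes other than *Trbc2*, it was 22754 against 24227 CPM. The median *Krt10* CPM of single cells there was higher by each choice. It was 21544 against 14723 for 2 or more of the 6 genes, and 16455 against 14809 for both other choices. In the controls, the medians for 2 or more of the 6 genes were 14567 against 28707 and 38204 against 25873. In the library labelled cKO, 2 or more of the 5 genes other than *Trbc2* were in 1.52% of the *Lor*-high cells and 1.37% of the other cells. In control 1 they were in 0 of 370 *Lor*-high cells and 5 of 1110 other cells, and in control 2 in 1 of 415 and 2 of 1243. These control numbers are too small to compare the 2 classes. T cell transcripts were thus found beside keratinocyte transcripts. Doublets were not called or removed, and their part was not tested.

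Barcodes of the same library were often shifted copies of each other, and this changes how many cells the numbers above stand for. In such a pair, the last 11 bases of one 12-base barcode are the first 11 bases of another. There were 186, 344 and 501 such pairs among the deposited barcodes, where 1.85, 1.44 and 1.84 are expected from barcodes of random bases. Among the kept cells, 15.6%, 34.4% and 34.9% had a shifted partner. Partners shared a median of 87.4%, 85.7% and 81.0% of the genes of the shallower barcode, while the same barcodes shared 36.3%, 39.4% and 39.6% with the 20 cells nearest in depth to the deeper one. All 120, 298 and 472 pairs of kept cells shared more than with those 20 cells.

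Of the cells with 2 or more of the 6 genes, 4 of 7, 5 of 11 and 43 of 68 had a shifted partner. In 2 control 1 pairs, no control 2 pair and 16 pairs from the library labelled cKO, both barcodes held 2 or more of the genes, and each of these 18 pairs held at least 2 of the same genes on both sides. Some barcodes were in 2 pairs, since a second shift followed the first. The barcodes of 4 of them are printed because they show the same T cell genes counted under a pair of barcodes. Capitals mark the 11 bases that partners share. The first 3 pairs are from the library labelled cKO and the last is from control 1.
pair 1, first barcode: aGTCGATGACTG
pair 1, second barcode: GTCGATGACTGt
pair 2, first barcode: aGGAATTGTTAC
pair 2, second barcode: GGAATTGTTACc
pair 3, first barcode: tGCAGTGGTAAC
pair 3, second barcode: GCAGTGGTAACt
pair 4, first barcode: tGAACGATCGAC
pair 4, second barcode: GAACGATCGACg
In pair 1, the first barcode had 75 counts of *Cd3g*, 81 of *Nkg7*, 15 of *Cd3e*, 5 of *Cd3d* and 157 of *Trdc*, and the second had 9, 1, 3, 1 and 8. In pair 2, the first barcode had 12 counts of *Cd3e* and 26 of *Cd3d*, and the second 10 and 16. In pair 3, the first barcode had 105 counts of *Cd3g*, 53 of *Nkg7* and 31 of *Cd3e*, the most *Cd3e* of any cell in that library, and the second 3, 8 and 5. In pair 4, the first barcode had 68 counts of *Cd3g* and 109 of *Nkg7*, which are the single cell named above that holds most of both genes in control 1, and the second had 3 and 15. The first barcode of each of these pairs was the deeper one.

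**Figure D4:**
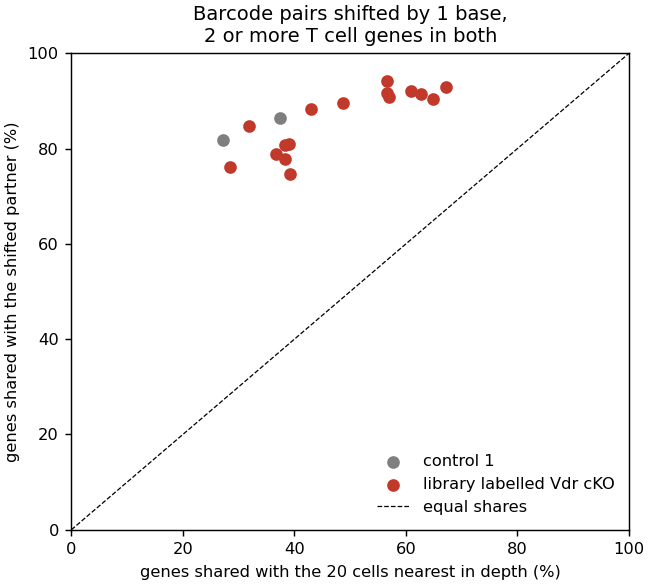
Percent of the genes of the shallower barcode that were also found in its shifted partner (vertical axis) against the percent found in the 20 cells nearest in depth to the partner (horizontal axis), for the 18 pairs of barcodes with 2 or more of the 6 genes on both sides. Each point is a pair, 16 from the library labelled cKO and 2 from control 1, and all lie above the dashed line of equal shares, between 74.6% and 94.2% on the vertical axis.

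Joining the shifted barcodes left 1361, 1366 and 2151 cells. Cells with 2 or more of the 6 genes then numbered 6, 11 and 49, where 4.58, 7.01 and 46.2 were expected. Cells with 3 or more numbered 2, 1 and 20, where 0.0838, 0.127 and 2.60 were expected. Cells with 2 or more of the 5 genes other than *Trbc2* numbered 3, 4 and 24, where 0.501, 0.630 and 8.19 were expected, and cells with 2 or more CD3 chains 0, 0 and 14. After joining, 2 cells of the library labelled cKO held all 6 genes, where none did before. Among them is the joined cell of the barcodes with 158910, 36761 and 184137 counts, which also occur in another library (below). Those barcodes had 9866, 6718 and 10096 detected genes and also held *Krt10*, *Lor* and *Cd74* counts. Whether they stand for a single cell was not tested. The number of cells in that library thus fell from 37 to 24 for the 5 genes, and the ratio to the expected number was 2.93 (counting interval 1.88 to 4.35). Their share was 0.220%, 0.293% and 1.12% of cells.

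Some of these barcodes also occurred in another library. Of the 68 cells in the library labelled cKO with 2 or more of the 6 genes, 4 had a barcode that is also in another library, among them its deepest cell with 184137 counts, and all 4 were among its 31 cells with 3 or more. Of the 11 cells of control 2, 1 did. In the library labelled cKO, the shared barcodes with 184137, 158910 and 36761 counts were linked to each other by shifts of 1 base. In control 2, the cell with 3 or more of the genes (138355 counts) had a shifted partner in common with the shared barcode. Its own barcode is in no other library, so it was not left out below. Without any barcode that occurs in more than 1 library, the shares of cells with 2 or more of the 6 genes were 0.482%, 0.613% and 2.46%.

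Genes that were not among the 6 were then counted in the same cells, from lists chosen with earlier results of these data known. Over the 3 libraries, 86 cells held 2 or more of the 6 genes, 68 of them from the library labelled cKO. The 4 lists of T cell genes (receptor chains, receptor signalling, coreceptors and surface proteins, cytotoxic and natural killer receptor genes) had 31 genes with a count in any cell. They were found 145 times in these 86 cells where 17.8 were expected at equal depth, or 8.17 times as often. Of the 31 genes, 23 were above the expected number and 8 were not seen in these cells. The part of the 18 shifted pairs in this is seen after joining, with 108 where 14.5 were expected, or 7.43 times. The median ratio over all 8910 genes held by at least 5 of the 86 cells was 1.36. That is a median over genes and not a ratio of sums, and the 31 genes had no such limit. The matrices do not list *Cd4*, *Cd8a*, *Gzma*, *Gzmb* or the γ chain genes *Tcrg-C1*, *Tcrg-C2*, *Tcrg-C4*, *Tcrg-V5* and *Tcrg-V6* under these symbols.

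Among receptor chains, *Trdc* was the most frequent, in 26 of the 86 cells where 2.00 were expected. *Trdc* had a count in 11, 10 and 45 cells of the 3 libraries, at 6.01, 1.29 and 16.6 CPM, and was over 2-fold above both controls. Of the 45 *Trdc* cells in the library labelled cKO, 25 held a CD3 chain, where 2.42 were expected. In the controls 1 of 11 and 2 of 10 did, where 0.182 and 0.163 were expected. Of the 15 cells with *Trdv4* in the library labelled cKO, 8 held *Trdc* where 0.385 were expected, and 8 held a CD3 chain where 0.840 were. In the controls, 2 of 3 and 1 of 3 *Trdv4* cells held a CD3 chain, where 0.0541 and 0.0845 were expected. None of those held *Trdc*. *Cd247* was in 8 of the 86 cells, 9.23 times the expected number. Chains of the δ receptor genes and CD3 chains were thus found together above the expected number in the library labelled cKO. In the controls they were also above it, but in too few cells to compare. Shifted barcodes were not joined for these pairs.

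Chains of the αβ receptor were rarer, apart from *Trbc2*. *Trac*, the α constant region, had a count in 0, 0 and 5 cells, and 2 of the 5 held a CD3 chain where 0.317 were expected. *Trbc1* was in 5 of the 86 cells where 1.15 were expected (4.36 times), and in the library labelled cKO 5 of its 20 cells held a CD3 chain where 1.19 were expected. *Trbc2* was nearer to the expected number. Of its 420 cells there, 34 held a CD3 chain where 23.6 were expected and 17 held *Trdc* where 11.5 were. Of the 120 and 189 *Trbc2* cells of the controls, 5 and 5 held a CD3 chain where 1.84 and 4.80 were expected.

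Signalling and surface genes were found in small numbers, and not all were above the expected number. Above it were 9 of the 12 listed signalling genes and 3 of the 6 listed surface genes. *Prkcq*, a kinase of the pathway, was at 1.12 times and over 2-fold below both controls by CPM (9.09, 17.95 and 1.97), *Cd5* was at 1.24 times, and *Il7r*, *Cd27*, *Themis* and *Txk* were in none of the 86 cells. These 6 genes were named after their values were seen. *Lat*, an adaptor below the receptor, was in 5 of the 86 cells (9.56 times expected), *Fyb* in 5 (5.03 times), and *Zap70*, the kinase that binds the phosphorylated CD3 and ζ chains, in 4 (13.2 times). *Sh2d2a*, which encodes a T cell adaptor, was in 4 (20.6 times) and *Skap1* in 4 (14.8 times). *Thy1*, a surface protein of dendritic epidermal T cells that other skin cells also carry, was in 24 (9.89 times). *Cd2*, a surface receptor of T cells, was in 3. Of the cytotoxic genes, *Ctsw* was in 9 (10.98 times), *Klrk1*, which encodes the receptor NKG2D, in 6 (13.5 times), *Klrd1* in 5, *Klrb1b* in 4 and *Prf1*, perforin, in 3.

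Genes listed for residence in the epidermis were mixed. *Ctla2a*, a protease inhibitor, was in 23 of the 86 cells (12.6 times expected), *Rgs1*, a regulator of G protein signalling, in 14 (6.89 times) and *Il2rb*, the β chain of the IL-2 and IL-15 receptor, in 10 (13.8 times). *Ahr* (1.71 times) and *Rora* (0.956 times) are also expressed by keratinocytes, and were in 22 and 52 of the cells. *Rgs1* had a count in 1, 3 and 46 cells, at 0.691, 4.43 and 10.8 CPM, and was over 2-fold above both controls by either measure. Of genes shared by leukocytes, *Arhgdib* was in 32 (2.01 times), *Laptm5* in 19 (8.80 times), *Ptprc*, which encodes CD45, in 15 (10.6 times), *Lcp1* in 14 (8.83 times) and *Fcer1g* in 13 (6.20 times).

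Genes of the keratinocyte side of T cell contact, such as *Skint3* and *Skint9*, members of a family named for its role in selecting these T cells, and *Cxadr*, a junction protein that a costimulatory receptor of these T cells binds, were found near the expected number. *Cxadr* was in 43 cells (1.19 times), *Skint9* in 50 (1.10 times), *Skint3* in 46 (1.06 times), *Cdh1* in 48 (1.03 times) and the chemokine *Ccl27a* in 76 (1.14 times). *Krt10*, *Krt15*, *Krtdap*, *Lor* and *Sbsn* lay between 0.994 and 1.06 times. All 10 Langerhans cell genes were above the expected number, with 84 where 34.4 were expected (2.44 times). The class II genes had *H2-Aa* at 2.79, *H2-Eb1* at 2.36, *H2-Ab1* at 2.05 and *Cd74* at 1.41 times, and *Mfge8* was at 2.75 times. Chosen after their values were seen, *Csf1r* (7 cells, 6.65 times) and *Cd207*, which encodes langerin (4 cells, 5.12 times), lay in the range of the T cell genes. Cells with 3 or more Langerhans genes numbered 8, 22 and 46, and 0, 1 and 3 of these also held 2 or more of the 5 genes other than *Trbc2*, where 0.0473, 0.0484 and 1.11 were expected. Shifted barcodes were not joined here. In the library labelled cKO, *Cd74* was in 3 cells with 2 or more of the 5 genes. These are the shift-linked barcodes with 184137, 158910 and 36761 counts, which also occur in another library. Whether they make up the overlap of 3 was not tested. Erythroid genes lay on both sides, with *Hbb-bs* at 2.54, *Hba-a2* at 1.45 and *Hba-a1* at 0.806 times, and the melanocyte gene *Dct* was in 3 cells (1.77 times).

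**Figure D5:**
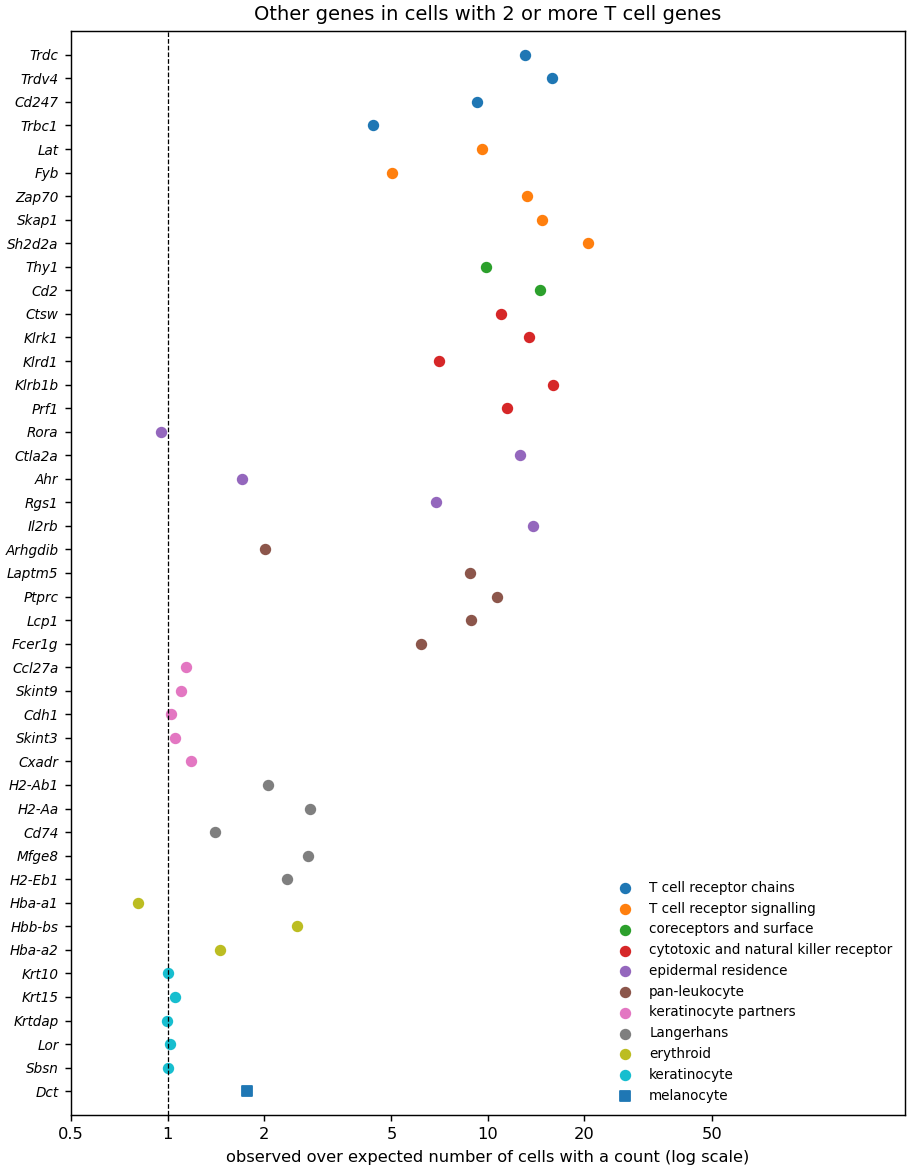
Observed over expected number of cells with a count (horizontal axis, log scale) in the 86 cells with 2 or more of the 6 genes, for up to 5 genes of each list with a count in at least 3 of these cells. Each point is a gene, colours are lists, and the dashed line marks the expected number at equal depth. The receptor, signalling, surface and cytotoxic genes plotted lie between 4.36 and 20.6, and keratinocyte genes lie near 1. Genes in fewer than 3 of these cells are not shown, among them *Prkcq*, *Cd5* and the 8 T cell genes seen in none. A gene with under 1 expected cell passes this limit only at over 3 times, while abundant genes pass at any ratio. The plotted ranges therefore do not compare the lists.

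Without a list, the genes most like the 6 were ranked by the same ratio among the 8910 genes held by at least 5 of the 86 cells, of which 38 had a ratio over 10. The first 10 were *Cst7*, *Dpysl2*, *Srgn*, *Hcst*, *Adora3*, *Trat1*, *Trdv4*, *Pik3cd*, *Gm48236* and *Gcnt1*, with ratios from 26.1 to 13.9. *Trat1*, which encodes an adaptor bound to the T cell receptor complex, was held by the most cells of these, 24 of the 86 where 1.47 were expected, and had a count in 9, 8 and 36 cells of the libraries. *Hcst*, which encodes DAP10, the signalling partner of NKG2D, was in 9, and *Srgn*, a granule proteoglycan, in 5. *Adora3*, an adenosine receptor, had a count in 9 cells in all, all from the library labelled cKO and all among the 86. With the 45 cells that held 2 or more of the 5 genes other than *Trbc2*, *Dpysl2*, *Hcst*, *Trat1*, *Adora3* and *Trdv4* were again among the first 10, with *Trdc*, *Fgd3*, *Il2rb*, *Matk* and *Cntn1*. Both barcodes of a shifted pair are counted in these numbers.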

How the data were processed

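The authors deposited, for each of the 3 libraries, a matrix of counts per gene and cell barcode (RNAdia 2.0 kit, Nadia droplets), not normalized. The submitters' notes name the build mm10. The study's methods name Seurat for alignment, which is an analysis package and not an aligner. The aligner, annotation and handling of molecule tags are not given in the sources used here, so counts can include PCR copies, and intervals cover counting error only. Gene positions are from GENCODE M21 (GRCm38).

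Counts were summed over kept cells and divided by the library total (CPM). Calls asked for over 2-fold above or below both controls, at 10 CPM or 1% of cells in at least 1 library. Expected numbers of cells came in closed form from 10 depth groups. Named were the 6 genes, at most 5 genes of each list with a count in at least 3 cells with 2 or more of the 6, the 10 genes of highest ratio, and *Vdr*. The 6 genes and the lists were chosen with earlier results of these data known. The share calls, sets without *Trbc2* and joined barcodes were added after seeing the data. The other listed genes enter the counts of their list, and 1 gene was left out of all results and is not reported here. Doublets were not called. Scripts ran in Python 3.11.15 with scipy 1.17.1, and scaling factors came from edgeR 4.0.16 and DESeq2 1.42.0. The procedures were tested on simulated data.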

Additional observations from a re-analysis of the deposited data

How the results depend on the processing

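With 1 library of 3 pooled mice labelled *Vdr* cKO, no difference between genotypes was tested, and the values of the controls rest on few cells. No paired analysis was possible because the sample titles do not pair a control library with the library labelled cKO. The log2 fold of the summed 6 genes was 0.58, where control 1 over control 2 gave 0.63. It was positive under all 16 alternatives (0.30 to 0.93 without either control), and moved beyond the spread of the controls only without *Trbc2*, to 1.29. The median log2 fold of the 6 genes was 0.95, with 0.68 to 1.498 without either control and 1.84 without the cell of most counts. When the CPM of single cells was averaged, the log2 fold of *Cd3e* turned from 0.88 to −0.19 and that of *Trbc2* from 0.36 to −0.080, and the cause was not tested. The log2 fold of *Cd3d* was 2.93 and lay between 0.75 (10 CPM added) and 3.36. Genes called by CPM numbered 0, and 1 to 2 without either control, 2 by averaged CPM of single cells, 1 with each gene counted once per cell, 1 at 2 CPM, 2 at 1.5-fold, and 3 by share of cells. The other 13 settings, among them TMM and median-of-ratios scaling, gave 0. Of all genes, 8.83% were called higher and 1.79% lower by the main CPM rule. By share of cells 18% were called higher, and by share at 1000 counts 11.9%. No share over all genes was taken at the other settings, so their counts are not read as results about the 6 genes.

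For cells with 2 or more of the 6 genes, the log2 ratio of shares was 2.19, with 1.97 to 2.46 without either control. It was 2.73 with all barcodes, 2.72 at 500 and 2.57 at 1000 counts per cell, 1.52 with 200 detected genes drawn, 0.78 for 1 or more genes, 2.84 for 3 or more and 2.55 for 2 or more of the 4 receptor genes. The cause of these moves was not tested. The observed over expected ratio in the library labelled cKO was 1.14, the same without either control since it is computed within 1 library. It was 1.56 with 1 depth group, 9.27 for 3 or more genes, 1.45 for the 4 receptor genes, 2.68 at 1000 counts, 3.66 without *Trbc2* and 2.93 without *Trbc2* and with shifted barcodes joined. Other T cell genes had a ratio of 8.17, and 13.4 in the cells chosen without *Trbc2*.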

Other observations

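*Vdr* was also counted in the cells with 2 or more of the 5 genes other than *Trbc2*. In the library labelled cKO it was in 19 of 37 such cells, where 8.59 were expected at equal depth. In the controls it was in 0 of 5 and 1 of 3, where 0.486 and 0.308 were expected. Over the 3 libraries, 7723 genes were held by at least 5 of these 45 cells. The median of their observed over expected ratios was 1.52. Both barcodes of a shifted pair are counted here, and 29 of the 37 had a shifted partner. All 37 also held *Krt10*, and which cells the *Vdr* counts came from was not tested. Of the barcodes below the limits for a cell, 1 of 160 in the library labelled cKO had a count of *Cd3e*, 0 had *Cd3g*, *Cd3d* or *Nkg7*, 1 had *Cd7* and 2 had *Trbc2*. In control 1, 13 of 1308 such barcodes had *Trbc2* and 3 had *Nkg7*, and in control 2, 10 of 802 had *Trbc2*, 5 had *Cd7* and 2 had *Cd3g*.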
